A study of Mus musculus with 10 samples.

Results

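Of 10 genes grouped here as E protein-dependent genes of double-positive thymocytes, 4 lay at background in thymic invariant natural killer T (iNKT) cells with or without Id3. Another 4 lay close to background, and 2, Cd1d1 and Themis, had a clear signal. Cd1d1, which encodes the lipid-presenting molecule CD1d, fell in cells without Id3 at stage 2, by 1.72-fold on each of its 2 probe sets, in a comparison in which 4.21% of all tested probe sets were called. The sign of that difference held under every alternative run, but the call was lost in 8 and 9 of 10 fits that each left out 1 array. None of the 10 genes was called as higher in any comparison. The genes were chosen by name, as Rag1, Rag2, Dntt, Ptcra, Arpp21, Themis, Ly6d, Cd1d1, Spo11 and Aqp11, out of 18193 genes with a probe set of their own, and all 22 probe sets that the platform annotation gives to them were followed, of 45037 on the array. RNA came from sorted thymic iNKT cells of 6-week-old C57BL/6 mice, either wild type (WT) or without Id3 (Id3KO). Stage 1 cells bound the tetramer and lacked CD24, CD44 and NK1.1, while stage 2 cells had the same profile but carried CD44. Each genotype had 2 arrays of stage 1 and 3 of stage 2, which the labels call biological replicates. The labels do not describe the Id3 allele, do not say whether mice were pooled, and name no agent given to the mice. The p-values measure the spread between these samples.

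E proteins, such as E2A and HEB, are basic helix-loop-helix factors that bind the DNA sequence CANNTG, the E-box, and they switch on the genes of T cell receptor rearrangement in CD4+CD8+ double-positive thymocytes. Id proteins pair with E proteins and keep them from DNA, and Id3 is induced when the T cell receptor signals. iNKT cells arise from double-positive thymocytes that are selected by lipids on CD1d of other double-positive cells. The 10 genes have different roles. Rag1, Rag2 and Dntt rearrange receptor genes, Ptcra and Themis serve the pre-receptor and receptor signals, Cd1d1 presents lipids, and Arpp21, Ly6d, Spo11 and Aqp11 have other functions.

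The values are probe set intensities on a log2 scale after RMA, an array normalization that subtracts background and equalizes the arrays. The number of arrays limits the precision of every value, and median intensities ran only from 54.8 to 55.5. Id3 served as a check of the labels, with intensities of 818 to 1289 in the 5 WT arrays and of 54.2 to 69.8 in the 5 Id3KO arrays. Cd44 stood at 7.20 and 7.81 (log2) in WT stage 1 cells and at 9.35 to 9.74 in WT stage 2 cells. In Id3KO cells it stood at 7.03 and 7.99 at stage 1 and at 8.13 to 9.17 at stage 2. The iNKT factor Zbtb16 had a mean of 9.98 over all arrays. Cd24a, which the sort excluded, had its highest value, 6.69, on WT stage 1 replicate 1 and lay at 5.33 to 5.93 on the other arrays. Cd8b1, the CD8 beta chain of double-positive cells, was at background with a mean of 5.32.

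A probe set counted as at background when its log2 value passed 5.78, the median of the whole table, on fewer than 2 arrays. This held for 11 of the 22 member probe sets, and the other 11, of 6 genes, were tested. Genes of other organs, such as liver and heart transcripts, gave a second guide. The 32 probe sets of 20 such genes had means with a median of 5.36 and a 95th percentile of 6.07, and 5 of them were kept by the filter. Of the 11 tested member probe sets, 6 had a mean at or below that percentile, so the filter left in several that were no brighter than transcripts of other organs. The 5 with a higher mean belonged to Cd1d1 (2 probe sets), Themis (2) and Aqp11 (1).

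**Figure D1:**
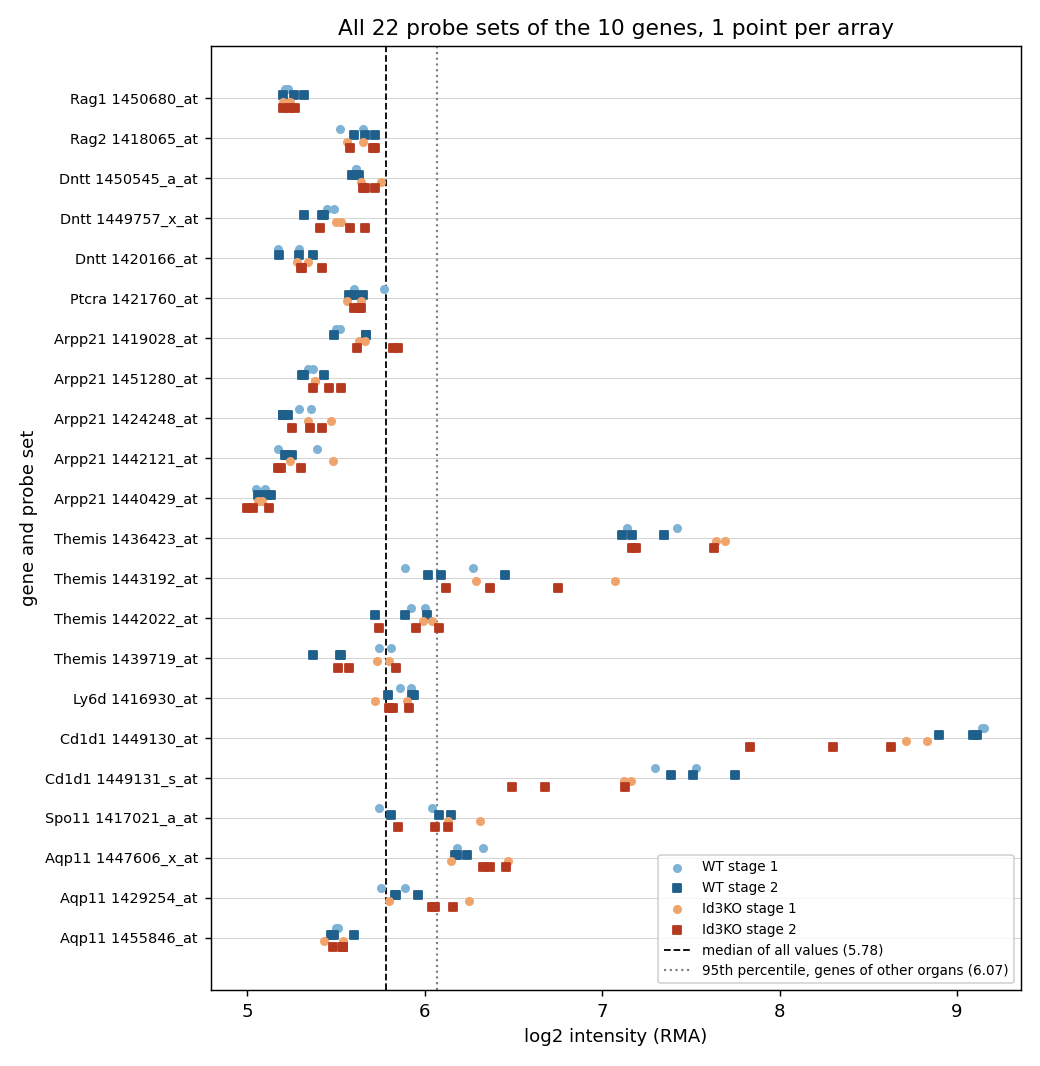
Each row is 1 probe set of the 10 genes, and each point is its log2 intensity on 1 array, coloured by group; the dashed line is the median of all values, 5.78, and the dotted line is the 95th percentile of genes of other organs, 6.07. The 2 Cd1d1 probe sets and the brightest Themis probe set lie to the right of both lines on all 10 arrays. So does Aqp11 1447606_x_at, which lies closer to the lines, at 6.15 to 6.47. The probe sets of Rag1, Rag2, Dntt and Ptcra lie to the left of both lines.

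Rag1 and Rag2, the recombinase subunits that cut receptor genes, were at background. The single Rag1 probe set lay at 5.21 and 5.23 in WT stage 1, at 5.20, 5.26 and 5.32 in WT stage 2, at 5.24 and 5.20 in Id3KO stage 1 and at 5.20, 5.24 and 5.27 in Id3KO stage 2 cells. The 4 groups overlapped, and the whole range over 10 arrays was 0.12. Rag2 lay between 5.52 and 5.72 with the groups mixed. Ptcra, the pre-T cell receptor alpha chain, lay between 5.56 and 5.77, with the highest value on WT stage 1 replicate 1. The promoters of Rag1 and Ptcra are shown because they hold E-boxes, marked in capitals, in genes that lay at background in all 4 groups. They are RefSeq windows on build GRCm38.p6, 250 bases before to 50 bases after the start site, printed 5′ to 3′ along the gene. The Rag1 window is chr2:101649483-101649782 on the minus strand, and the Ptcra window is chr17:46763663-46763962, also on the minus strand.
Rag1: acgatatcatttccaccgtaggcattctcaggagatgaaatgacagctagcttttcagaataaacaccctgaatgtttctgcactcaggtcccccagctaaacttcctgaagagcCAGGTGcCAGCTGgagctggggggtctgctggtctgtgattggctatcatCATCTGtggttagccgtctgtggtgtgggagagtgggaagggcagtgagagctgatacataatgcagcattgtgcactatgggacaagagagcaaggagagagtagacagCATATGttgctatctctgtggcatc
Ptcra: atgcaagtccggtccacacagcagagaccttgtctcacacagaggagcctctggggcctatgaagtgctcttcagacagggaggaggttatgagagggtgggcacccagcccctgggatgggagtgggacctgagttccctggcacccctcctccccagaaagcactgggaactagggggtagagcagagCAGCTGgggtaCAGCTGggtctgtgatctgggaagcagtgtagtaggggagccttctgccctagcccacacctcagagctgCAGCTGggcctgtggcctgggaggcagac

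The E-box was searched as CANNTG, which reads the same on both strands, and its subtypes as CAGCTG and as CACCTG, whose other strand reads CAGGTG. Both subtypes are also matches of CANNTG. The Rag1 window held 4 E-boxes, with a CAGGTG and a CAGCTG close together at -135 and -128 from the start site. The Ptcra window held 3, all CAGCTG. Of 32851 promoter windows in the table, 72.3% held CANNTG, 16.3% CAGCTG and 20.2% CACCTG. The table had windows for 7 of the 10 genes and none for Cd1d1, Spo11 or Ly6d. Each of the 7 genes had an E-box in its windows, which is a match of letters and not a binding site. The windows of Rag2 and Dntt, which were also at background, held no CAGCTG or CACCTG. Arpp21, mostly at background too, had 9 windows, of which some that overlap one another held both.

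Dntt, the terminal transferase that adds bases at receptor joints, was at background on all 3 probe sets, between 5.17 and 5.75. Its brightest probe set, 1450545_a_at, lay at 5.61 and 5.61 in WT stage 1 and at 5.63, 5.59 and 5.62 in WT stage 2 cells. It lay at 5.64 and 5.75 in Id3KO stage 1 and at 5.66, 5.65 and 5.72 in Id3KO stage 2 cells. The 5 Id3KO arrays were all above the 5 WT arrays, but the whole range was 0.17 and every value lay below the table median, so it was not tested. The other 2 Dntt probe sets overlapped between the genotypes. Arpp21, a phosphoprotein of thymocytes and neurons, had 5 probe sets, of which 4 were at background and 1, 1419028_at, passed the filter through 2 arrays, 5.85 and 5.82 in Id3KO stage 2 cells. Its differences between Id3KO and WT were 0.13 ± 0.10 (log2, SE, n = 2 and 2) at stage 1 and 0.16 ± 0.09 (n = 3 and 3) at stage 2, and neither passed the test (limma adjusted p = 0.748 and 0.424).

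Themis, which tunes receptor signals during positive selection, was clearly measured by 1 of its 4 probe sets. The brightest, 1436423_at, lay at 7.42 and 7.14 in WT stage 1 and at 7.35, 7.11 and 7.17 in WT stage 2 cells. It lay at 7.69 and 7.64 in Id3KO stage 1 and at 7.63, 7.17 and 7.19 in Id3KO stage 2 cells. At stage 1 both Id3KO arrays were above both WT arrays, where 41.5% of all tested probe sets had no overlap. At stage 2 the genotypes overlapped. The difference was 0.39 ± 0.17 (log2, SE, n = 2 and 2) at stage 1 and did not pass (limma adjusted p = 0.472). At stage 2 it was 0.12 ± 0.14 (n = 3 and 3, adjusted p = 0.767), with a 95% confidence interval of -0.20 to 0.43. Its sign at stage 2 turned without Id3KO replicate 1 (-0.03). From stage 1 to stage 2 it stood at -0.07 ± 0.15 in WT and at -0.34 ± 0.15 in Id3KO cells, and neither passed (limma adjusted p = 0.966 and 1). The second probe set, 1443192_at, stood at 0.60 ± 0.29 (adjusted p = 0.534) and 0.23 ± 0.24 (adjusted p = 0.733) at the 2 stages, with 7.07 on Id3KO stage 1 replicate 1 against 6.29 on replicate 2. Without replicate 1 its stage 1 difference was 0.21. The 2 dimmer probe sets, 1442022_at and 1439719_at, lay between 5.37 and 6.08, with genotype differences of -0.01 to 0.17 that did not pass. The promoter of Themis is shown as that of a member with a clear signal, and E-boxes were not compared between such members and those at background. Its first start site has the window chr10:28668110-28668409 on the plus strand, with 2 E-boxes, neither of them CAGCTG or CACCTG.
Themis: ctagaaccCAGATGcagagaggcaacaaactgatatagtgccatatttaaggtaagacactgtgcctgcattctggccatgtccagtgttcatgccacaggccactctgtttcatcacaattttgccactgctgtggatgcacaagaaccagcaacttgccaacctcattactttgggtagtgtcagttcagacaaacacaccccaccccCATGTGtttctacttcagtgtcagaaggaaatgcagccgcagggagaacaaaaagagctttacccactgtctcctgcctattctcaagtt

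Spo11, the enzyme that makes DNA breaks in meiosis and is also transcribed in thymocytes, lay between 5.74 and 6.31. Its values were 6.04 and 5.74 in WT and 6.31 and 6.13 in Id3KO cells at stage 1, a difference of 0.33 ± 0.16 (log2, SE, n = 2 and 2, limma adjusted p = 0.518). At stage 2 the difference was 0.00 ± 0.13 (n = 3 and 3, adjusted p = 0.997), and its sign changed between scalings. No Spo11 difference between stages passed either (0.12 in WT and -0.20 in Id3KO, limma adjusted p = 0.899 and 1). Of 9 meiotic partners of Spo11 on the array, 7 were at background, among them Dmc1, the meiotic recombinase, and Sycp3, a chromosome axis protein.

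Aqp11, a channel of intracellular membranes, had 2 tested probe sets. The brighter, 1447606_x_at, lay at 6.24, 6.18 and 6.17 in WT and at 6.46, 6.33 and 6.37 in Id3KO stage 2 cells. The dimmer, 1429254_at, lay at 5.83, 5.84 and 5.96 in WT and at 6.16, 6.04 and 6.06 in Id3KO stage 2 cells. On both, the 3 Id3KO arrays of stage 2 were above the 3 WT arrays, by 0.19 ± 0.09 and 0.21 ± 0.12 (log2, SE), and neither difference passed (limma adjusted p = 0.370 and 0.416). At stage 2 the genotypes did not overlap for 21.4% of all tested probe sets. At stage 1 the genotypes overlapped on both of these Aqp11 probe sets. The third Aqp11 probe set was at background. Ly6d, a surface protein of early lymphocytes, lay between 5.72 and 5.94 with the groups mixed, and its differences of -0.08 ± 0.10 and -0.05 ± 0.08 did not pass (limma adjusted p = 0.865 and 0.861).

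**Figure D2:**
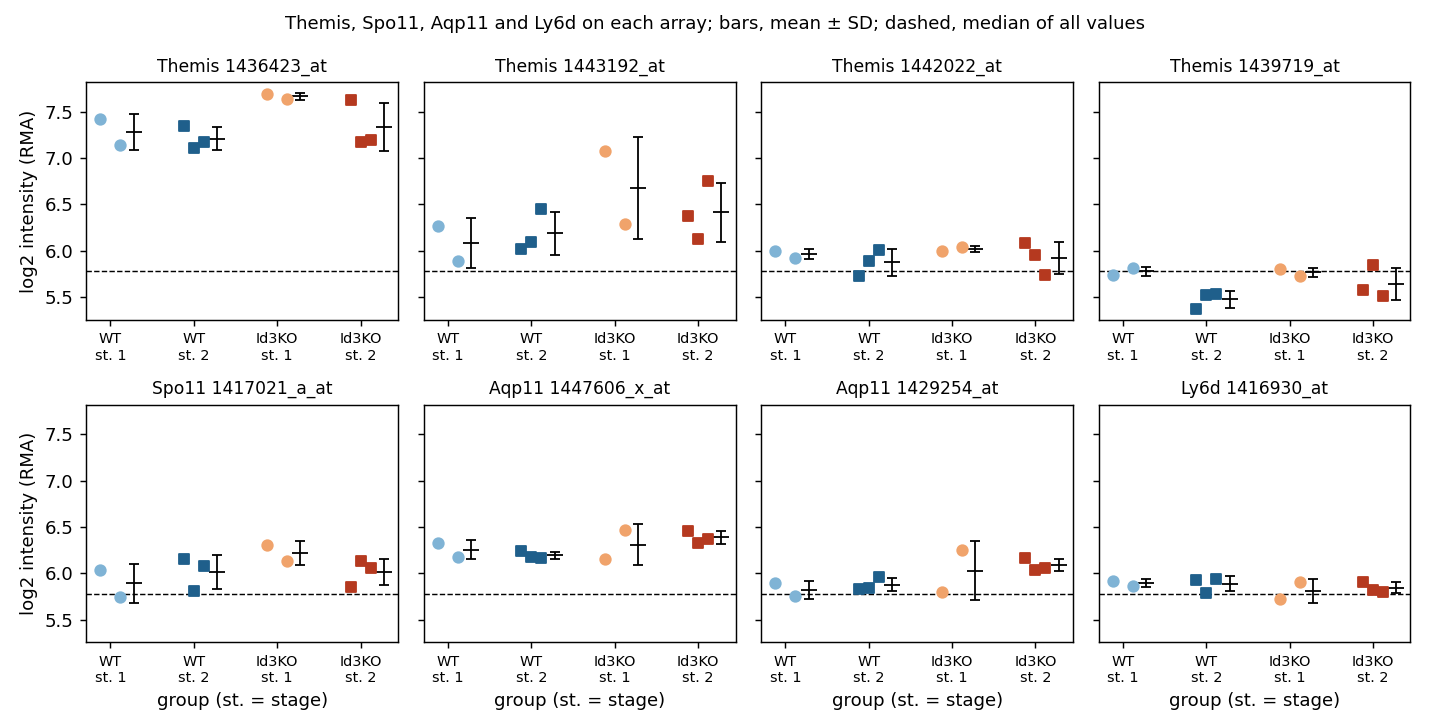
Each panel shows 1 probe set of Themis, Spo11, Aqp11 or Ly6d, with the log2 intensity of each array by group, bars for the mean ± SD and a dashed line at the table median of 5.78. In the first Themis panel the Id3KO stage 1 arrays, 7.69 and 7.64, are the highest of the 10, and Ly6d stays between 5.72 and 5.94.

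Cd1d1 was the brightest member and the one gene of the 10 with a call. The probe set 1449130_at lay at 9.14 and 9.15 in WT stage 1 cells, at 9.09, 8.90 and 9.11 in WT stage 2 cells, at 8.83 and 8.71 in Id3KO stage 1 cells and at 8.63, 8.30 and 7.83 in Id3KO stage 2 cells. Every Id3KO array was below every WT array, and the genotypes did not overlap for 6.85% of all tested probe sets. In linear intensity the means were 524.2 ± 40.9 (SD, n = 3) in WT and 312.6 ± 84.3 (n = 3) in Id3KO stage 2 cells. The difference at stage 2 was -0.78 ± 0.17 (log2, SE, limma adjusted p = 0.0436), which is 1.72-fold, with a 95% confidence interval of -1.18 to -0.38. The second probe set, 1449131_s_at, was dimmer but gave the same order of genotypes. It lay at 7.30 and 7.53 in WT stage 1, 7.75, 7.39 and 7.51 in WT stage 2, 7.16 and 7.12 in Id3KO stage 1, and 7.13, 6.68 and 6.49 in Id3KO stage 2 cells. Its difference at stage 2 was -0.78 ± 0.16 (log2, SE, n = 3 and 3, limma adjusted p = 0.0347). In sorted cells measured in bulk, fewer cells with the transcript and less transcript per cell cannot be told apart.

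Both Cd1d1 differences kept their sign when any 1 array was left out, from -0.97 to -0.57 for 1449130_at and from -0.96 to -0.65 for 1449131_s_at, but the calls did not. Both were lost (limma adjusted p = 0.0525 to 0.143) without any 1 of the 4 stage 1 arrays or the 3 WT stage 2 arrays, and without Id3KO stage 2 replicate 2. That of 1449131_s_at was also lost without Id3KO stage 2 replicate 3 (0.0777). Among the other settings, both were lost without a filter on dim probe sets (0.0727 and 0.0577) and with a fit limited to the arrays of stage 2 (0.116 and 0.0916). That of 1449130_at was also lost with the replicate number as a block (0.0559) and with crossed numbers (0.0552), although the labels do not tie the numbers to pairs. With both probe sets averaged, a setting added after the data were seen, the difference was -0.78 (adjusted p = 0.017). Probe sets of the class _s_at can bind several transcripts, and Cd1d1 has a near-identical neighbour, Cd1d2. The probe set of Cd1d2, looked up after the Cd1d1 values were seen, was at background, between 5.65 and 5.83.

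**Figure D3:**
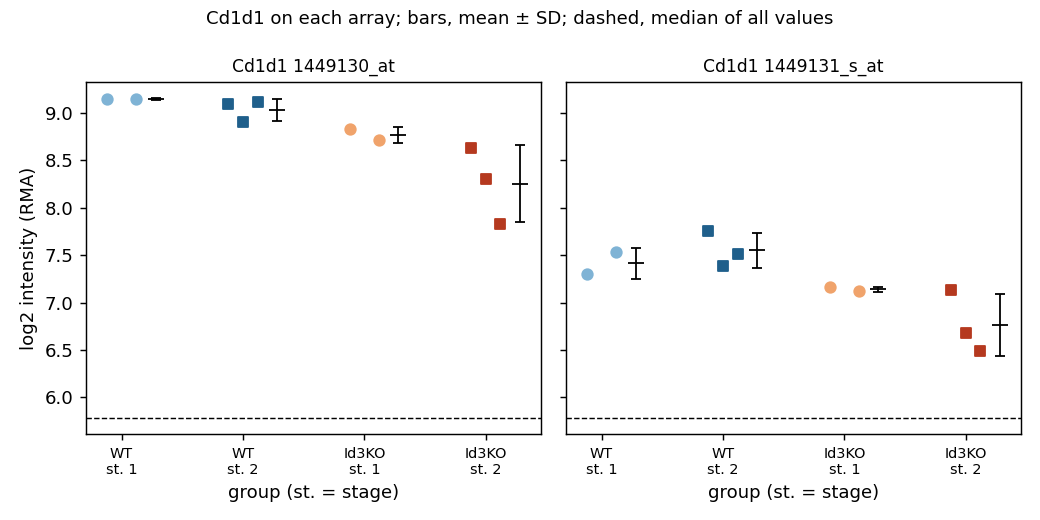
The log2 intensity of Cd1d1 is plotted for each array by group, with 1 panel per probe set, bars for the mean ± SD and a dashed line at the table median of 5.78. On both panels all 5 Id3KO points lie below all 5 WT points, and the Id3KO stage 2 points spread the most, from 8.63 to 7.83 on the left.

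At stage 1 the Cd1d1 differences were -0.37 ± 0.21 and -0.27 ± 0.20 (log2, SE, n = 2 and 2) and did not pass (limma adjusted p = 0.622 and 0.727). The genotypes did not overlap there on either probe set, as for 41.5% of all tested probe sets. The test of the difference between the stages gave -0.41 ± 0.28 and -0.51 ± 0.26 (adjusted p = 0.799 and 0.741), so a larger fall at stage 2 was not shown. Ordered by their means, the groups ran 9.15 in WT stage 1, 9.03 in WT stage 2, 8.77 in Id3KO stage 1 and 8.25 in Id3KO stage 2 cells on the brighter probe set. On the dimmer one they ran 7.55 in WT stage 2, 7.41 in WT stage 1, 7.14 in Id3KO stage 1 and 6.77 in Id3KO stage 2 cells, where the WT stages overlapped and so did the Id3KO stages. Between the stages Cd1d1 stood at -0.12 and 0.13 in WT and at -0.52 and -0.37 in Id3KO cells, and none of these passed (adjusted p = 0.921 to 1).

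Counted over the tested members, limma called 0 of 11 at stage 1, where 0.802% of all 25061 tested probe sets were called, and 1 passed at an unadjusted p under 0.05, beside 10.5% of all. At stage 2 it called 2 of 11, both Cd1d1 and both lower, against 4.21% of all probe sets, or 2.39% lower and 1.82% higher. Between the stages 0 of 11 were called in WT (0.016% of all) and 0 in Id3KO cells (0% of all), with 1 each at an unadjusted p under 0.05, beside 8.06% and 4.51% (1131 probe sets) of all. For the difference of the genotype effect between the stages 0 were called (0% of all), and 0 at an unadjusted p under 0.05, beside 7.07% (1772 probe sets) of all. With both stages averaged, 0 of 11 were called against 4.97% of all, and 4 passed unadjusted, beside 16.8% of all, namely both Cd1d1 probe sets, 1 of Themis and 1 of Aqp11. There the lowest member value was that of Cd1d1 1449130_at (-0.58 ± 0.14, limma adjusted p = 0.0503), which was called without Id3KO stage 2 replicate 1 (0.0133) or replicate 3 (0.0222).

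The genotypes did not overlap at stage 1 for 6 of 11 tested members, against 41.5% of all probe sets, and at stage 2 for 4 of 11, against 21.4%. Over all 5 WT and 5 Id3KO arrays this held for 2 of 11, both Cd1d1, against 6.85%. The median difference of the 11 was 0.05 at stage 1 and 0.12 at stage 2, beside -0.01 and 0.01 for all tested probe sets, with 7 and 8 of the 11 above 0, beside 48.0% and 51.6% of all. These numbers are descriptions only, since several of the 11 share a gene and Arpp21 passed the filter through Id3KO stage 2 arrays alone.

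**Figure D4:**
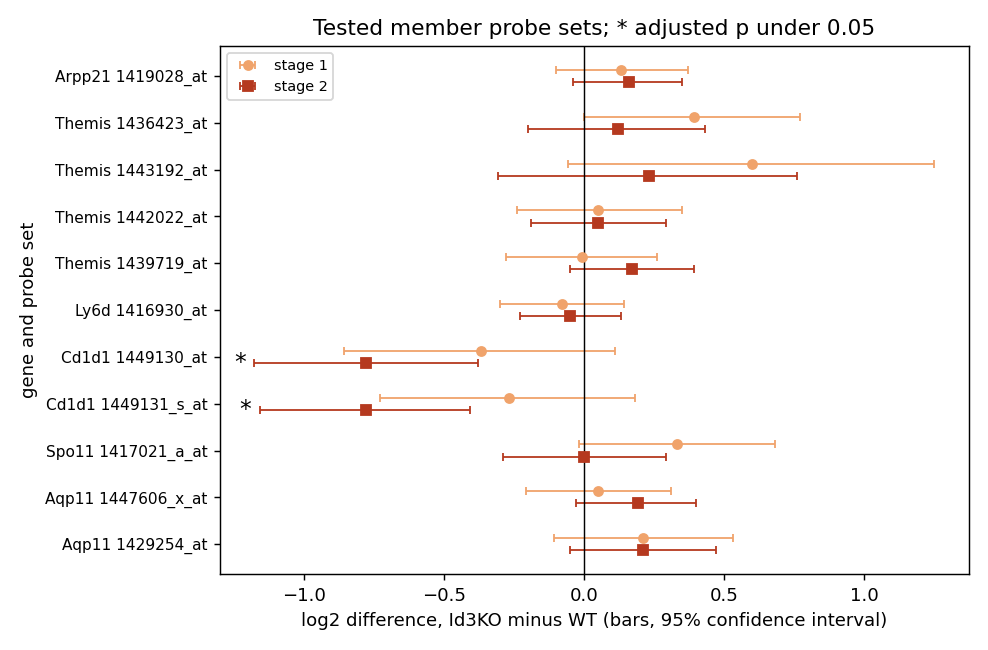
Points give the log2 difference of Id3KO minus WT for the 11 tested probe sets at stage 1 and stage 2, with 95% confidence intervals of the moderated fit and a star where the adjusted p is under 0.05. The 2 stars mark Cd1d1 at stage 2, at -0.78 each, and the other stage 2 intervals include 0.

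Genes that work with Cd1d1 in loading and showing lipids moved in both directions at stage 2. Of 12 tested, limma called 4 lower and 1 higher, beside 2.39% lower and 1.82% higher of all probe sets. The median difference was -0.08 beside 0.01 for all probe sets. The gene lists here and below were chosen with earlier results of these data known, so their counts are descriptions only. Gm2a, a lysosomal lipid transfer protein, lay at 8.82, 8.80 and 8.97 in WT and at 7.72, 7.79 and 8.01 in Id3KO cells, a fall of 2.03-fold (-1.02 ± 0.09, log2, SE, n = 3 and 3, limma adjusted p = 0.000893). Ctss, the lysosomal protease cathepsin S, fell by 0.76 ± 0.12 (limma adjusted p = 0.0105) and Tapbp, the class I loading factor tapasin, by 0.56 ± 0.12 (0.0336). B2m, the light chain that pairs with CD1d and class I molecules, fell by 0.38 ± 0.08 (limma adjusted p = 0.0409). Lamp1, a lysosomal membrane protein, rose by 0.56 ± 0.09 (limma adjusted p = 0.00923). The call of B2m was lost without any 1 array other than WT stage 2 replicate 1 (adjusted p = 0.0626 to 0.146). That of Tapbp was lost without any 1 WT array or without Id3KO stage 2 replicate 2 or 3 (0.0513 to 0.123). The second probe sets of B2m (-0.33, limma adjusted p = 0.0678) and Tapbp (-0.19, 0.334) did not pass. The other 2 probe sets of Gm2a were at background. Psap, the saposin precursor, stood at -0.69 and did not pass (0.111). At stage 1 limma called 0 of the 12, beside 0.802% of all probe sets, and 5 had an unadjusted p under 0.05, beside 10.5% of all.

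Among 17 other tested genes of double-positive thymocytes, limma called 4 higher and 0 lower in Id3KO than in WT cells at stage 2. The shares of all probe sets called were 1.82% higher and 2.39% lower. This list too was chosen with earlier results of these data known, so its counts are descriptions only. Of the 17, 8 had an unadjusted p under 0.05 (16.9% of all probe sets did), and the median difference was 0.00. Lztfl1, a regulator of ciliary traffic, rose 3.29-fold (1.72 ± 0.16, log2, SE, n = 3 and 3, limma adjusted p = 0.000875). Ccr9, the chemokine receptor for CCL25, lay at 9.83, 9.75 and 9.87 in WT and at 11.43, 11.31 and 11.36 in Id3KO cells, which was 2.93-fold higher (1.55 ± 0.10, limma adjusted p = 0.000211). Nrgn, the calmodulin-binding protein neurogranin, rose by 1.01 ± 0.12 (limma adjusted p = 0.00255). Myb, a transcription factor of progenitors and thymocytes, rose by 0.59 ± 0.10 (limma adjusted p = 0.0124). Other probe sets of Lztfl1 (0.32 to 0.67) and Ccr9 (0.25 to 1.58) had differences above 0 too, of which 1 of 4 and 2 of 4 passed. With all tested probe sets averaged, Lztfl1 stood at 0.78 and Ccr9 at 0.97. From stage 1 to stage 2, Ccr9 means went from 10.98 to 9.82 in WT and from 11.40 to 11.37 in Id3KO cells. Those of Lztfl1 went from 8.79 to 7.88 and from 9.42 to 9.60, and those of Nrgn from 8.09 to 7.61 and from 8.66 to 8.61. Myb means went from 9.57 to 9.46 and from 10.20 to 10.05. For the difference of the genotype effect between the stages, limma called 0 of the 17, beside 0% of all probe sets. There 3 of the 17 had an unadjusted p under 0.05, beside 7.07% of all. A stage change that differed between the genotypes was thus not shown. Between the WT stages limma called 1 of the 17, lower at stage 2, beside 0.016% of all probe sets. The coreceptor Cd4 (-0.17), Cd8a (-0.04), Satb1 (0.00), a chromatin organizer, and Sox4 (-0.09), a thymocyte factor, did not pass, and Cd8b1 was at background. At stage 1 limma called 0 of the 17, beside 0.802% of all, and 5 had an unadjusted p under 0.05, beside the same 10.5% of all.

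The 12 tested genes that complete receptor gene joining with Rag1, Rag2 and Dntt gave 0 limma calls at either stage, beside 0.802% and 4.21% of all probe sets. At an unadjusted p under 0.05 they gave 1 and 4 (10.5% and 16.9% of all probe sets), with medians of -0.01 and 0.03. Several lay well above background on the arrays where Rag1 and Rag2 did not, such as Xrcc6, the Ku70 end-binding protein, with a mean of 7.90 and Prkdc, the DNA-dependent kinase, with a mean of 8.09. Of 13 tested partners of Ptcra and Themis, 2 were called lower at stage 2, beside 2.39% of all probe sets. They were Notch1 (-0.72 ± 0.10, log2, SE, n = 3 and 3, limma adjusted p = 0.00645), the receptor that precedes pre-receptor signalling, and Dtx1 (-1.05 ± 0.18, limma adjusted p = 0.0145), a Notch target. The second probe set of each did not pass (Notch1 -0.32, limma adjusted p = 0.149, and Dtx1 0.28, 0.213). The call of Dtx1 was lost without WT replicate 2 (0.0593), Id3KO replicate 1 (0.0518) or Id3KO replicate 2 (0.0530) of stage 2, and its 2 probe sets averaged gave -0.38. The CD3 chains, Zap70 and the Themis partners Grb2 and Ptpn6 did not pass at either stage. Among these chains Cd247 stood at -0.65 at stage 1 and -0.42 at stage 2 (limma adjusted p = 0.0578 and 0.054). With both stages averaged, limma called 3 of the 13 partners lower and 0 higher, beside 4.97% of all probe sets called. Of the E and Id protein genes, Id3 alone was called at either stage. Id2, the other main Id gene of T cells, stood at -0.78 at stage 1 and -0.70 at stage 2 (limma adjusted p = 0.186 and 0.0583). It lay at 10.76 to 11.17 on the WT arrays and at 9.96 to 10.62 on the Id3KO arrays, without overlap, as for 6.85% of all probe sets. With both stages averaged, limma called 2 of the 5 tested E and Id protein genes, both lower, beside 4.97% of all probe sets called. The E protein genes Tcf3 and Tcf12 were expressed, with means of 8.29 and 8.94.

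**Figure D5:**
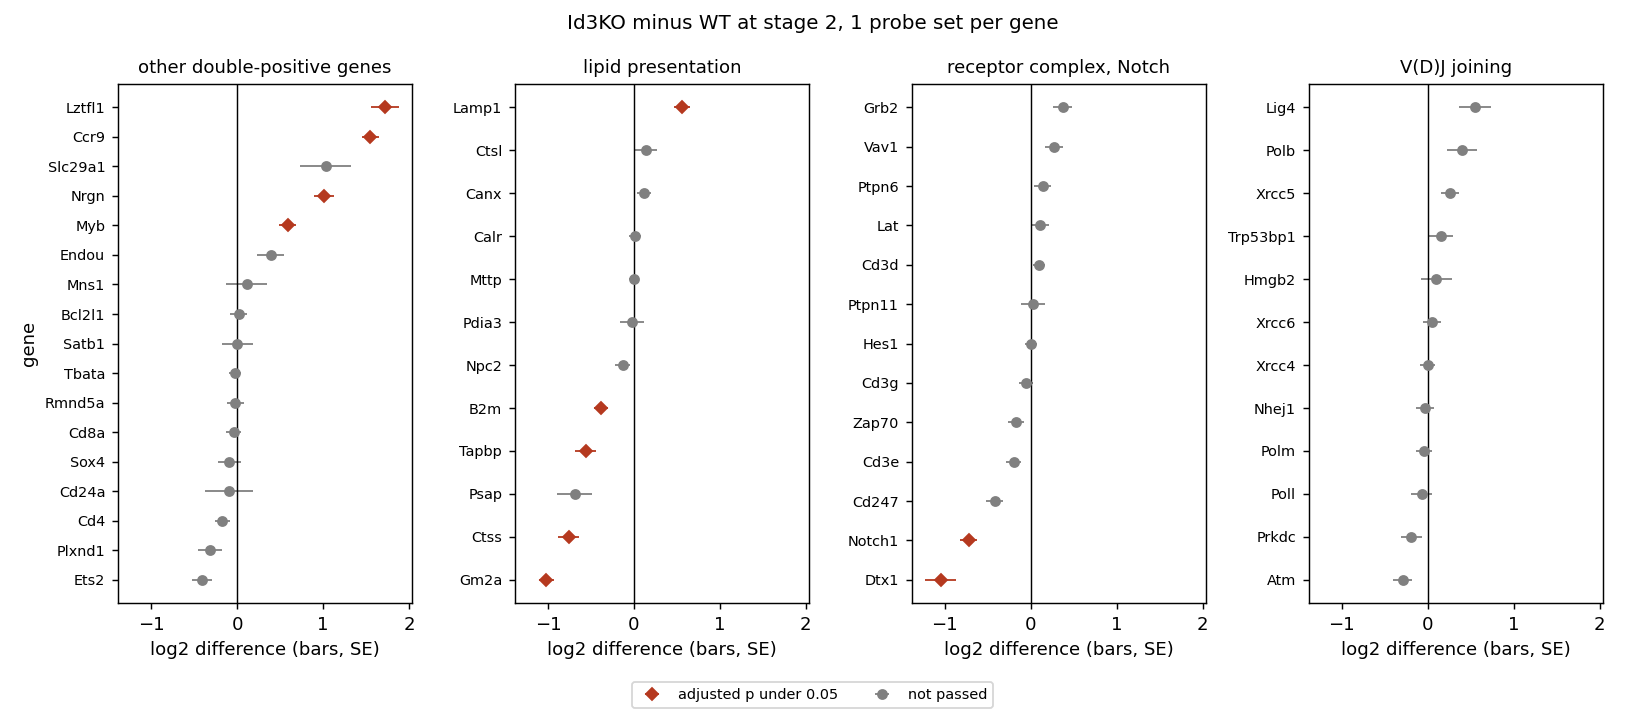
Each panel shows the log2 difference of Id3KO minus WT at stage 2 for the tested genes of 1 list, with bars for the SE and red diamonds where the adjusted p is under 0.05. Gm2a, at -1.02, is the lowest of the lipid presentation genes, Lztfl1, at 1.72, is the highest of the double-positive genes, and the joining genes hold no red point.

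Cells other than iNKT cells can carry Cd1d1, Dntt or Ly6d, so their markers were read on the same arrays. All 7 B cell markers on the array, Cd79a, Cd79b, Ms4a1, Ebf1, Pax5, Vpreb3 and Cd22, had means below the 6.07 of other organ genes, and their summed intensity lay between 361 and 402 in WT and between 358 and 382 in Id3KO stage 2 cells. Among them Cd79b, a B cell receptor chain, had values of 6.39, 6.06 and 5.90 in WT and of 5.69, 5.63 and 5.65 in Id3KO stage 2 cells (-0.46 ± 0.13, limma adjusted p = 0.0914). Like Cd1d1, Cd79b was lower in Id3KO than in WT cells at stage 2. Its Id3KO values there lay below the table median, so their spread cannot be compared with that of Cd1d1. The other tested B cell markers, Cd79a (0.04), Pax5 (0.01), Vpreb3 (0.12) and Cd22 (-0.03), did not pass at stage 2. The part of B cells in the Cd1d1 difference was not tested. For 8 myeloid and dendritic cell markers without Ccr9 the sum lay between 442 and 462 in WT and between 469 and 474 in Id3KO stage 2 cells, with Itgax and Itgam at background. Ccr9 is also among the double-positive genes above. With it the sum lay at 1306 to 1398 in WT and at 3005 to 3231 in Id3KO stage 2 cells. H2-Aa (0.36, limma adjusted p = 0.198), Lyz2 (0.10), Csf1r (0.05), Cd74 (-0.06), Siglech (0.03) and Flt3 (-0.03) did not pass at stage 2. The 7 thymic epithelial markers summed to 380 to 412 over all arrays, with Krt14 and Psmb11 at background. The 5 double-positive markers summed to 2456 to 2640 in WT and 1890 to 2959 in Id3KO stage 2 cells, mostly through Satb1. Among the markers of the sort and of T cells, Thy1 fell at stage 2 by 1.39 ± 0.17 (log2, SE, n = 3 and 3, limma adjusted p = 0.00385), and its part in the fall of Cd1d1 was not tested.

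The genes whose pattern over the 10 arrays was most like that of Cd1d1 1449130_at were Stk24, a kinase (Pearson r = 0.975), Hk1, the first enzyme of glycolysis (0.951), and Dubr (0.950). For Themis 1436423_at they were Ikbkb, a kinase of NF-kappaB signalling (0.949), Abi2, an actin regulator (0.927), and Dld, a mitochondrial dehydrogenase (0.907). For Spo11 they were Tmem259 (0.929), Gemin8 (0.924) and Pabpn1 (0.908), and for Arpp21 1419028_at Slc10a7 (0.961), Pde4b (0.958) and Gin1 (0.928). These are the highest of many correlations over the same 10 arrays in 4 groups, and they are given as a description. The means of Spo11 (6.03) and Arpp21 1419028_at (5.64) lay below the 6.07 of other organ genes, so their patterns are those of dim signals. Arpp21 also passed the filter through Id3KO stage 2 arrays alone.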

How the data were processed

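The authors used two-cycle amplification of RNA from sorted cells for Affymetrix arrays, per the labels' protocols, and deposited intensity values that the submitters' processing notes say were made with RMA, in a version not given in the sources used here. The values are linear, from 29.0 to 15399, with no depth in counts, so log2 was taken here. Replicate arrays correlated at 0.983 to 0.993.

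Probe sets above the table median (log2 5.78) on at least 2 arrays, 25061 of 45037, were fitted with limma 3.58.1 in R 4.3.3, with 1 mean per group over all 10 arrays. Tests were two-sided with Benjamini-Hochberg adjustment over all tested probe sets, and a call is an adjusted p below 0.05. The pipeline was tested on simulated data. Genes came from a GEO platform annotation, and sequences from RefSeq, where 7 of 10 members matched.

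Members and lists were chosen with earlier results of these data known. The text names all members, list members (the brightest probe set per gene) and the 3 genes with the most similar pattern for up to 4 members. Cd1d2 was looked up after the values were seen. Alternatives were other filters, scalings, variance models, only the arrays compared, a replicate block, 1 value per gene, and each array left out. Replicate numbers were not treated as pairs.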

Additional observations from a re-analysis of the deposited data

How the results depend on the processing

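The difference of Cd1d1 at stage 2 was recomputed under 19 alternatives. Its sign held in all of them, and the call of 1449130_at was lost in 12 and that of 1449131_s_at in 11. Counts over members at stage 2, 2 as reported, were 0 with no filter, 0 with only the arrays compared, 1 with the replicate block and 1 with crossed numbers (1449131_s_at in both), and 0 to 2 with each array left out. With both stages averaged, where 0 members were called, the count was 2 with the stricter filter, 1 with quantile normalization, 1 with an intensity trend and 0 to 2 with each array left out. In the other comparisons 0 members were called under every alternative run.

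Counts over all probe sets moved more. At stage 1 (201) they were 28 with only the arrays compared, 99 with the replicate block and 15 to 234 with each array left out, lowest without WT stage 1 replicate 1 (15) or 2 (33) or Id3KO stage 1 replicate 1 (65) or 2 (76), and also low without WT stage 2 replicate 2 (123) or 3 (133). At stage 2 (1055) they were 626 with only the arrays compared and 504 to 883 with each array left out, lowest without WT stage 2 replicate 3 (504) or 2 (581) or Id3KO stage 2 replicate 2 (650). With both stages averaged (1245) they were 692 to 1209 with each array left out, lowest without WT stage 1 replicate 1 (692) or 2 (693) or Id3KO stage 1 replicate 1 (762). Between the stages in WT (4) they were 7 with the stricter filter, 8 with quantile normalization, 9 with an intensity trend, 2 with only the arrays compared, 0 with the replicate block and 0 to 11 with each array left out. For the difference between the stages (0) they were 1 with no filter, 1 with the stricter filter, 1 with an intensity trend and 0 to 1 with each array left out. The cause of these moves was not tested. Deviations of same-numbered arrays correlated at -0.311 to 0.133, above 0.1 for 2 of 13 pairs, and not every stage 2 array correlated best with its own number, so the replicate block rests on numbers alone. Crossing the numbers of the Id3KO stage 1 arrays (r = -0.135 as numbered), added after the data were seen, gave 169 calls at stage 1.

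Signs turned for differences near 0, none of them called. Spo11 at stage 2 (0.00) was -0.00 with quantile normalization, -0.01 with centred arrays and -0.10 to 0.08 with each array left out. Themis 1439719_at at stage 1 (-0.01) was 0.26 with the gene's probe sets averaged and -0.04 to 0.03 with each array left out. Cd1d1 1449130_at between the WT stages (-0.12) was 0.01 with the gene's probe sets averaged. With each array left out, Themis 1436423_at ran from -0.03 to 0.20 at stage 2 and from -0.21 to 0.08 between the WT stages, Themis 1442022_at from -0.03 to 0.14 at stage 2, and at stage 1 Ly6d from -0.17 to 0.01, Aqp11 1447606_x_at from -0.11 to 0.21 and Aqp11 1429254_at from -0.02 to 0.43.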
